A study of Rattus norvegicus with 10 samples.

Results

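Reg3b, Lcn2, A2m, Lbp, Cp, Hp, Orm1, S100a8 and S100a9 encode proteins that rise in blood or tissue during inflammation, and their mRNA was measured in the left ventricle of rat hearts. The 9 genes were taken by name from the platform annotation, which pairs 14217 gene symbols with single-gene probe sets, and 11 probe sets carry their names. Reg3b and Lcn2 were picked because their rise had been noticed in these arrays, so their difference between the groups is described here without a test. The other 7 genes were picked by name as further acute-phase proteins.

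The study compared 5 ventricles that received MKK3bE together with wild-type p38α (the p38 group) with 5 that received LacZ. MKK3bE is an always active mutant of MKK3, which phosphorylates p38, a stress-activated kinase, and LacZ encodes a bacterial enzyme used as a gene transfer control. Total RNA was hybridised to Affymetrix rat whole-genome expression arrays, 1 array for each of 10 samples. All samples were taken 3 days after gene transfer from rats of 250 to 300 g, and 9 of the 10 labels, all but that of LacZ 1, also name male Sprague-Dawley rats. The labels name neither the vector, its promoter nor the cells it reached, and do not say whether each array is a separate animal. The p-values below therefore measure only the spread between these samples, which may be technical.

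Acute-phase proteins are secreted mostly by the liver when interleukin-6 and interleukin-1 reach it, through STAT3, C/EBP and NF-kB factors, and they bind microbes, free iron, haemoglobin or proteases. Several of them are also made outside the liver by injured epithelium, macrophages and heart muscle. S100a8 and S100a9 differ from the others in origin, as they are stored in large amounts in neutrophils and monocytes. The arrays measured mRNA, so nothing here gives the amount of protein made or secreted, and in whole tissue fewer cells of a type and less RNA per cell cannot be told apart.

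Signals are in arbitrary units after quantile normalization between arrays, and folds come from mean log2(signal + 16), a scale that understates changes of dim probe sets. A probe set was tested if its mean over the 10 arrays lay above 5.80 on that log2 scale, a signal of 39.6, and 10 of the 11 probe sets and 8 of the 9 genes passed that filter. A difference "passed" where limma's adjusted p over all 18625 tested probe sets was under 0.05. Where a group's mean lay below the limit, arrays under it were set to it and the fold is given as "at least". This bound concerns brightness only and does not cover the spread between arrays. Levels are not comparable between probe sets.

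Median deposited signals of the arrays ran from 60.3 to 88.05. LacZ 5 was the only LacZ array whose experiment record gives the fluidics run as Started, a status it shares with p38 1, p38 2 and p38 3, while p38 4, p38 5 and LacZ 1 to LacZ 4 are recorded as Completed. Over all tested probe sets p38 1 correlated more closely with the LacZ arrays than with the other p38 arrays (median r 0.967 with p38 and 0.976 with LacZ), as did p38 3 (0.972 with p38 and 0.974 with LacZ), and LacZ 5 stood nearest to the p38 group among the LacZ arrays (0.977 with p38 and 0.980 with LacZ). Several results are also given without LacZ 5 or p38 1. Leaving out both together was chosen after the data were seen, and p38 3 was not left out with them. For genes that did not pass, the leave-outs quoted are mostly those after which they passed. Leaving out an array that overlaps the other group tends to widen a difference, so such passes add no support. The rat genes of the transferred kinases did not pass, Map2k3 with a log2 difference of 0.11 ± 0.07 (SE) and Mapk14 with -0.02 ± 0.07, and whether their probe sets read the transferred sequences was not tested. Heart muscle markers were present throughout. By the brightest probe set, of 13 tested cardiomyocyte genes 2, Mybpc3 and Ryr2, were lower in p38 hearts and 11 did not pass. Of all tested named genes 6.23% were lower and 11.6% higher. The other tested probe set of Myh6 was lower and that of Ryr2 did not pass. Atp2a2 also had a dimmer probe set that was lower, while its remaining tested ones did not pass.

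RefSeq promoter windows, 250 bases before to 50 after the start in the GRCr8 assembly, were at hand for Reg3b, Lcn2, Cp, Orm1 and S100a9. The windows of Reg3b (chr4:112419526-112419825, + strand) and Lcn2 (chr3:36081731-36082030, - strand) are shown because these differed most between the groups among the 9 genes, and that of Orm1 (chr5:81788259-81788558, + strand) because it holds the most matches. Capitals mark matches on either strand to STAT (TTCNNNGAA), C/EBP (TTNNGNAA), AP-1 (TGANTCA) or CRE (TGACGTCA) letters or to the NF-kB consensus.
Reg3b: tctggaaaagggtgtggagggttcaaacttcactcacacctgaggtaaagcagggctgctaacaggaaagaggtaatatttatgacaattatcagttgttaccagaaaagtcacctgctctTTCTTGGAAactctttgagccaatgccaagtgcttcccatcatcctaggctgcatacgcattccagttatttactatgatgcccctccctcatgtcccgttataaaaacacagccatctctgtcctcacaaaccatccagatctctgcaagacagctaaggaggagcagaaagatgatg
Lcn2: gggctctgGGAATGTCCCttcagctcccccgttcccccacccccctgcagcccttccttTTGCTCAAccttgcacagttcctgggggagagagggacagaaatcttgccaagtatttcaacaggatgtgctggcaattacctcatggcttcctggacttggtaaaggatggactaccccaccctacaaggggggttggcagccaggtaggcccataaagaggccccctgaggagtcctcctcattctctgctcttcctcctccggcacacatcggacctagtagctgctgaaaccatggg
Orm1: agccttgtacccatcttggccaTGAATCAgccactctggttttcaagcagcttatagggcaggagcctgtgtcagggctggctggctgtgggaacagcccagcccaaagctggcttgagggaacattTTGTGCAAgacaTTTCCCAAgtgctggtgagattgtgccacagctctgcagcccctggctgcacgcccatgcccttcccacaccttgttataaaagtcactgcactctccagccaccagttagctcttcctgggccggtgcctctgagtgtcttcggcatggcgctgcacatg
The Reg3b window holds 1 STAT match, TTCTTGGAA, beginning 129 bases before the start. The Lcn2 window holds 1 NF-kB match, GGAATGTCCC, beginning 242 bases before the start and 1 C/EBP match, TTGCTCAA, beginning 191 bases before it. In the Orm1 window C/EBP matches begin 123 and 111 bases before the start and an AP-1 match begins 228 bases before it. Cp has 1 C/EBP match and S100a9 has 2, and no CRE letters occur in the 5 windows. Among all 33469 windows searched, 8.87% hold a STAT match, 41.3% a C/EBP match, 7.51% an NF-kB match, 7.33% an AP-1 match and 1.83% a CRE match, so a C/EBP match is common. These are matches of letters, not shown sites of binding.

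Reg3b encodes a secreted C-type lectin that binds bacterial walls and, in heart, is known as an attractant of macrophages. Its signal (probe set 1368238_at) was 8743, 6473, 2932, 7299.8 and 7733 on arrays p38 1 to p38 5, against 339, 419, 699, 909 and 7935 on arrays LacZ 1 to LacZ 5. Every p38 array lay above LacZ 1 to LacZ 4, but LacZ 5 lay above 4 of the 5 p38 arrays, so the groups overlap. The mean was 6636 ± 2227 in p38 hearts and 2060.1 ± 3292 in LacZ hearts (SD, n = 5 each), and the log2 difference was 2.70, or 6.51-fold. Without LacZ 5 it was 3.47. Among arrays recorded as Completed the difference was 3.74, or 13.3-fold (2 p38 and 4 LacZ arrays), and among those recorded as Started it was -0.53 (3 p38 arrays and LacZ 5 alone). The Reg3b difference between groups thus had opposite signs within the 2 fluidics statuses, and the part of the status in it was not tested.

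Lcn2 encodes lipocalin-2, which binds the siderophores that bacteria use to take up iron. Its signal (1387011_at) was 3301, 2586, 1072, 3013 and 1056 on the p38 arrays, against 524, 481, 499, 486 and 2231 on the LacZ arrays. LacZ 1 to LacZ 4 lay close together and below all p38 arrays, at most 524, while LacZ 5 lay within the p38 range. The log2 difference was 1.52 (2.87-fold), and 1.95 without LacZ 5. It was 1.81 (3.51-fold) among Completed arrays and -0.09 among Started arrays.

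**Figure D1:**
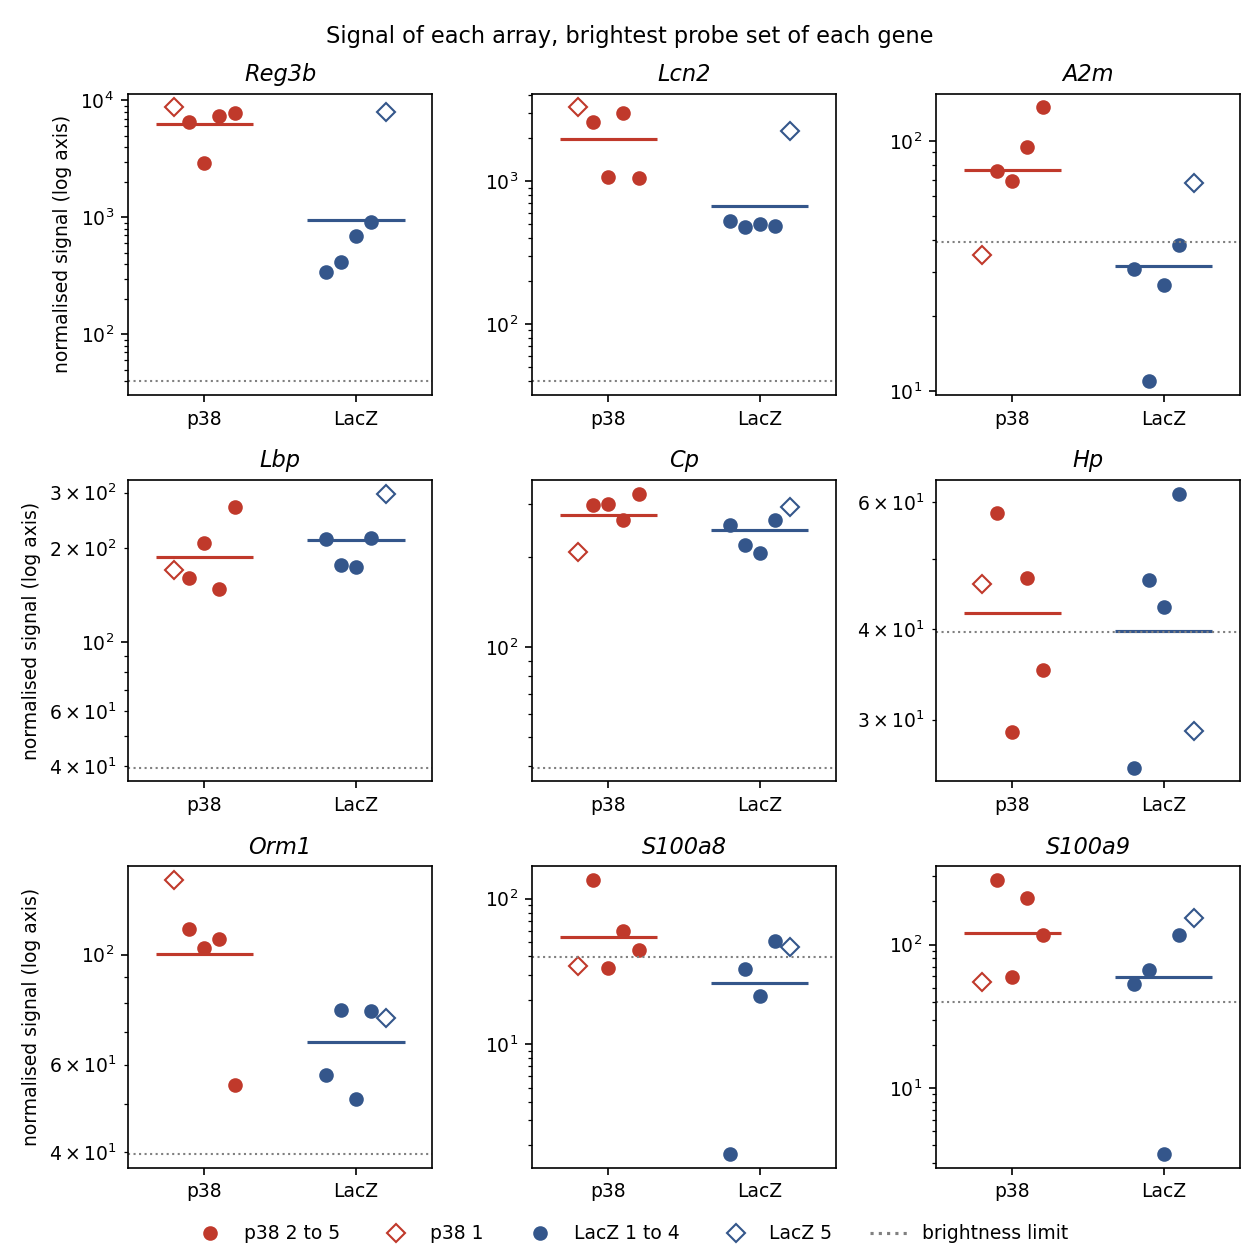
Normalised signal of the 9 genes on each array (vertical log axis, arbitrary units, different in each panel), p38 arrays in red on the left and LacZ arrays in blue on the right of each panel. Bars are group means of log2(signal + 16) set back to the signal scale, open diamonds are p38 1 and LacZ 5, and the dotted line is the brightness limit of 39.6. For Reg3b and Lcn2, LacZ 5 sits at 7935 and 2231, among the p38 arrays and far above LacZ 1 to LacZ 4.

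LacZ 5 stood further above its own group in Reg3b and Lcn2 than in any other tested probe set. Its gap above the highest of LacZ 1 to LacZ 4 ranked first of 18625 for Reg3b, at 3.10 on the log2 scale (8.60-fold), and second for Lcn2, at 2.06 (4.16-fold). Rank 3 was Reg3g, a paralogue of Reg3b that follows it closely on the same chromosome in RefSeq, at 1.63 (3.10-fold). Only 2 probe sets had a gap over 2 and 34 a gap over 1, while LacZ 5 lay above the other 4 LacZ arrays in 20.5% of tested probe sets. The inhibitor of metalloproteinases Timp1 had rank 8 and the matrix protein tenascin-C (Tnc) rank 9. LacZ 5 lay within the p38 range at ranks 1 to 3 and 8 to 10, but above every p38 array at ranks 4 to 7, 11 and 12. Alox15 (rank 5) had 382 on LacZ 5, 108 to 120 on LacZ 1 to LacZ 4 and 19.2 to 101 in p38 hearts.

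LacZ 5 was not near the p38 level for every gene that was higher in p38 hearts. Atf3, a stress-induced transcription factor, had 292 to 1146 in p38 hearts, against 63.9 to 88.3 on LacZ 1 to LacZ 4 and 70.5 on LacZ 5. Hamp, which encodes the iron hormone hepcidin, had 1012 to 6840.5 in p38 hearts, against 272 to 489 on LacZ 1 to LacZ 4 and 613 on LacZ 5.

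Reg3b, S100a9, Lcn2 and A2m were among the most variable probe sets within groups. The pooled SD within groups on the log2 scale was 1.34 for Reg3b, larger than in 99.957% of tested probe sets, 1.08 for S100a9 (99.89%), 0.88 for Lcn2 (99.77%) and 0.59 for A2m (98.3%). It was 0.34 for Orm1, 0.33 for Hp, 0.31 for Lbp and 0.22 for the brightest Cp probe set, against a median of 0.20 over all tested probe sets. Without LacZ 5 the SD was 0.63 for Reg3b (98.9%) and 0.57 for Lcn2 (98.3%), against 1.07 for S100a9 (99.91%) and 0.51 for A2m (97.1%). S100a9 on LacZ 3 (signal 3.45) and A2m on p38 1 and LacZ 1 to LacZ 4 lay under the brightness limit. The shares compare probe sets of any brightness.

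None of the other tested genes passed. The count was 0 of 6 (A2m, Lbp, Cp, Hp, Orm1 and S100a9, by the brightest probe set of each), where 17.8% of the 10596 tested named genes passed, 11.6% higher and 6.23% lower in p38 hearts. Of the 6, 2 had an unadjusted limma p under 0.05. Counted by probe set, 16% of all tested probe sets passed, 8.6% higher and 7.4% lower. S100a8 was too dim to be tested. The groups overlapped in each of the 9 genes, while they did not in 11% of all tested probe sets, among them 5.62% with every p38 array above every LacZ array.

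**Figure D2:**
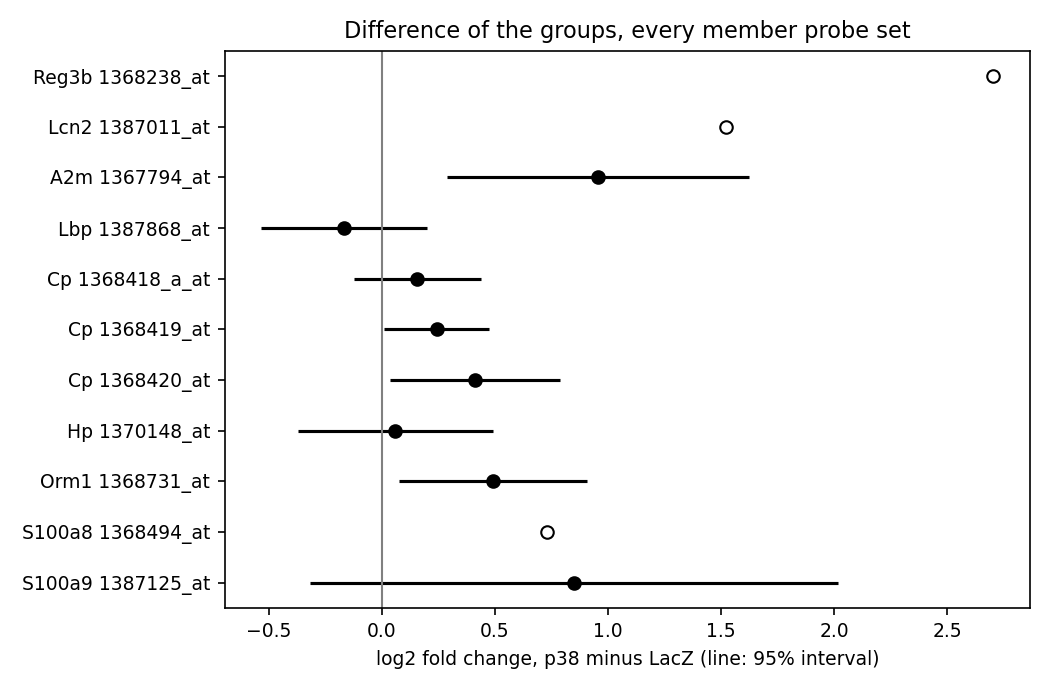
Log2 difference, p38 minus LacZ, of each probe set of the 9 genes (horizontal axis) with its 95% confidence interval from limma as a line. Open points have no interval, as Reg3b and Lcn2 were chosen for this difference and S100a8 was too dim to be tested; the intervals of A2m, Orm1 and a pair of Cp probe sets lie above 0, but none of the tested ones passed after adjustment.

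A2m encodes alpha-2-macroglobulin, a protease trap and a major acute-phase protein of the rat. Its signal (1367794_at) was 34.9, 75.7, 69.2, 94.4 and 136 on the p38 arrays, against 30.7, 11.0, 26.5, 38.3 and 67.9 on the LacZ arrays. All p38 arrays but p38 1 lay above every LacZ array, and p38 1 and LacZ 1 to LacZ 4 lay under the brightness limit. The difference was 0.96 ± 0.31 (SE) with a 95% interval of 0.29 to 1.62 and an adjusted p of 0.0512. By the bound for dim arrays the fold was at least 1.53, which does not cover the spread between arrays. A2m passed without LacZ 5 (adjusted p 0.026), without p38 1 (0.012) and without both (0.0038), and its log2 difference was 1.65 among Completed and -0.19 among Started arrays. Over 24 alternative choices of processing or arrays A2m passed in 8, with adjusted p up to 0.121.

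Orm1 encodes alpha-1-acid glycoprotein, a plasma carrier of lipids and drugs. Its signal (1368731_at) was 141, 113, 103, 108 and 54.7 on the p38 arrays, against 57.3, 77.2, 51.1, 76.8 and 74.4 on the LacZ arrays. Here LacZ 5 lay with its own group, and p38 5 was the array that overlapped it. The difference was 0.49 ± 0.19 (0.08 to 0.91, adjusted p 0.0950). Without p38 5 it was 0.66 and passed (adjusted p 0.024), but that array was picked because it overlapped, so this pass adds no support. Over 24 alternative choices of processing or arrays Orm1 passed in 2, with adjusted p up to 0.219. Within both fluidics statuses p38 was higher, by 0.21 among Completed and 0.57 among Started arrays.

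Lbp encodes the protein that hands bacterial lipopolysaccharide to the receptor complex of Cd14, Tlr4 and Ly96. Its signal (1387868_at) was 170.1, 161, 207, 148 and 269.7 on the p38 arrays, against 213, 177, 174, 216 and 298 on the LacZ arrays. The groups overlapped over most of their range, with the highest value on LacZ 5. The difference was -0.17 ± 0.17 (-0.53 to 0.20; adjusted p 0.516), and with signals as deposited it was 0.01, so its direction depends on the scaling.

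Cp encodes ceruloplasmin, the copper-carrying ferroxidase of plasma, and has 3 tested probe sets. The brightest (1368418_a_at) had 207, 298, 299.8, 265 and 326 on the p38 arrays, against 255, 219, 206, 265 and 294 on the LacZ arrays, a difference of 0.16 ± 0.13 (adjusted p 0.421). The dimmest by mean (1368420_at) had 105, 138, 155, 153 and 155 on the p38 arrays, against 84.8, 76.8, 92.3, 105 and 166 on the LacZ arrays. In the dimmest, LacZ 5 was the highest of all 10 arrays and the other LacZ arrays lay below the lowest p38 array. Its difference was 0.41 ± 0.17 (adjusted p 0.117), and it passed without LacZ 5 (0.57, adjusted p 0.022) and without p38 1 (0.51, adjusted p 0.0497). Over 23 alternatives this probe set passed in 3, with adjusted p up to 0.242. The remaining probe set (1368419_at) differed by 0.24 ± 0.11 (adjusted p 0.135). The 3 probe sets thus had the same direction and none passed.

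Hp encodes haptoglobin, which binds free haemoglobin. Its signal (1370148_at) was 46.2, 58.0, 28.8, 47.0 and 35.1 on the p38 arrays, against 25.7, 46.8, 43.0, 61.6 and 28.9 on the LacZ arrays. Both groups straddled the brightness limit and overlapped over most of their range. The difference was 0.06 ± 0.20 (-0.37 to 0.49; adjusted p 0.861), and without 1 array it ran from -0.04 to 0.18.

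S100a8 and S100a9 encode the subunits of calprotectin, a calcium- and zinc-binding protein, and lie next to each other in RefSeq. S100a9 (1387125_at) had 54.5, 282, 59.1, 212 and 116 on the p38 arrays, against 53.1, 66.3, 3.45, 117 and 153 on the LacZ arrays. The highest values were on p38 2 and p38 4, and the groups overlapped. The difference was 0.85 ± 0.54 (-0.32 to 2.02; adjusted p 0.288), and it was 0.36 without LacZ 3 and 0.56 without p38 2. S100a8 (1368494_at) had 34.5, 135, 33.1, 59.9 and 44.4 on the p38 arrays, against 1.74, 33.0, 21.3, 51.0 and 46.4 on the LacZ arrays. Its highest value was also on p38 2, and the difference of 0.73, a bound of at least 1.19-fold, has no test. It was 0.42 without LacZ 1 and 0.45 without p38 2. Of 12 other neutrophil markers with a probe set 11 were too dim to be tested, the receptor Cxcr2 among them, Csf3r did not pass (0.53), and their summed signal was 157 to 302 in p38 hearts and 102 to 199 in LacZ hearts.

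Of 39 other acute-phase genes with a probe set, 29 that rise and 10 that fall in the classical response, 17 were bright enough to be tested. Of these 5 were higher in p38 hearts, none was lower and 12 did not pass, where 11.6% of tested named genes were higher. With 1 array left out 3 to 9 of the 17 passed, and without LacZ 5 and p38 1 together 10 were higher. The median difference of the 17 was 0.45, against 0.00 over all tested named genes. Fibrinogen (Fga, Fgb, Fgg), Crp, Apcs, Serpina1, Hpx and albumin (Alb) were among the 22 too dim to be tested.

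Hamp was 7.70-fold higher (2.94 ± 0.46, adjusted p 0.00732), with 1012, 4907, 1597, 6840.5 and 6278 on the p38 arrays, against 411, 318, 272, 489 and 613 on the LacZ arrays. All p38 arrays lay above all LacZ arrays. Within fluidics status Hamp differed by 4.11 among Completed and 1.68 among Started arrays. Cd14, a receptor for lipopolysaccharide carried by Lbp, was 2.79-fold higher (1.48 ± 0.31, adjusted p 0.0123). Its signal was 448, 949, 769, 1835 and 1720.4 on the p38 arrays, against 328, 325, 352, 312 and 457 on the LacZ arrays, with p38 1 just below LacZ 5.

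Serpina3n, a serine protease inhibitor, was at least 1.46-fold higher (1.09 ± 0.24, adjusted p 0.0149), with 61.9, 63.9, 70.6, 76.3 and 80.9 on the p38 arrays, against 13.2, 10.7, 25.6, 28.1 and 59.9 on the LacZ arrays. LacZ 5 was the highest LacZ array and just under the lowest p38 array. Chi3l1, a chitinase-like lectin, differed by 0.57 ± 0.16 (adjusted p 0.0304). Igfbp3, an insulin-like growth factor carrier listed among genes that fall, was higher by 0.34 ± 0.11 (adjusted p 0.0425; 0.0514 without LacZ 5), and its other tested probe set did not pass.

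Reg3g had 437, 236, 91.8, 205 and 234 on the p38 arrays, against 76.5, 55.5, 57.4, 83.5 and 293 on the LacZ arrays. Like Reg3b, every p38 array lay above LacZ 1 to LacZ 4, and LacZ 5 lay above all but p38 1. The difference of 1.10 ± 0.41 did not pass (adjusted p 0.0781), but it passed without LacZ 5 (1.48, adjusted p 0.0151) and without p38 3 (1.38, adjusted p 0.0253). Over 25 alternatives Reg3g passed in 5, with adjusted p up to 0.173. Reg1a, another gene of the cluster, differed by 0.13 and did not pass, and Reg3a was too dim to be tested. Tnfaip6 differed by 1.12 (adjusted p 0.0590) and passed without LacZ 5 (1.40, adjusted p 0.0234), without p38 1 (1.37, adjusted p 0.0171) and without p38 3 (1.30, adjusted p 0.0343). Over 24 alternatives Tnfaip6 passed in 6, with adjusted p up to 0.149. Slpi (0.76), Mt2A (0.62), C3 (0.10) and Lrg1 (-0.02) also did not pass.

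**Figure D3:**
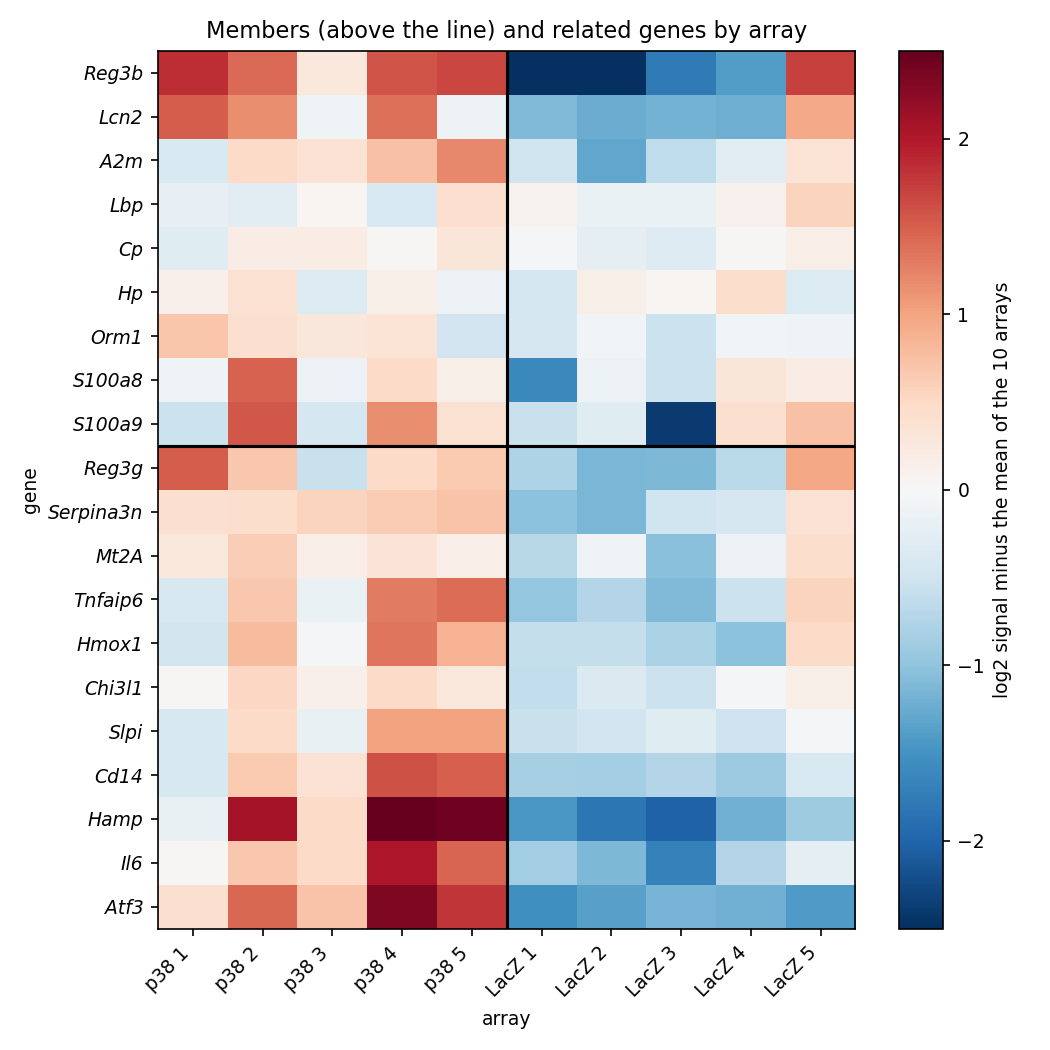
Log2(signal + 16) minus the mean of the 10 arrays (colour, red higher and blue lower, saturated at the ends of the scale) for the 9 genes above the horizontal line and related genes under it, p38 arrays left and LacZ arrays right of the vertical line. The LacZ 5 column is red for Reg3b, Lcn2 and Reg3g and blue for Hamp, Cd14 and Atf3.

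The receptors and partners of the 9 proteins comprised 19 genes with a probe set, of which 17 were tested. In p38 hearts 6 were higher, none was lower and 11 did not pass, where 11.6% of tested named genes were higher and 6.23% lower, and the median difference was 0.10. With 1 array left out 3 to 8 passed, and without LacZ 5 and p38 1 together 8 passed. The lipopolysaccharide receptor genes rose together, with Ly96 higher by 0.60 (adjusted p 0.00993), Tlr4 by 0.63 (0.0179) and Cd14 as above, while Lbp itself did not pass. Emb, which encodes embigin, a cell surface protein described as an S100a8/S100a9 receptor, was higher by 0.85 (adjusted p 0.0218). Ager and Bsg, also described as receptors of these proteins, differed by 0.08 (adjusted p 0.790) and -0.08 (0.285) and did not pass. Cyba and Cybb, membrane subunits of the phagocyte NADPH oxidase, were higher by 0.71 (adjusted p 0.0107) and 0.76 (0.0471), and the other tested Cybb probe set did not pass.

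Other receptors and partners did not pass with all arrays in the fit. Extl3, described as a receptor of Reg3 proteins, differed by -0.06 and the lipocalin-2 receptor Slc22a17 by 0.09. Lrp1, which clears alpha-2-macroglobulin, differed by 0.10, and Cd163, which takes up haptoglobin bound to haemoglobin, by -0.23. Hmox1, the enzyme that breaks down haem, differed by 1.01 (adjusted p 0.0537) and passed without LacZ 5 (1.25, adjusted p 0.0213), without p38 1 (1.24, adjusted p 0.0113) and without p38 3 (1.14, adjusted p 0.0372). Over 25 alternatives Hmox1 passed in 8, with adjusted p up to 0.135. The iron exporter Slc40a1 differed by -0.26.

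Among the cytokines, receptors and transcription factors known to control acute-phase genes, 31 of 40 with a probe set were tested. By the brightest probe set of each, 10 were higher in p38 hearts, none was lower and 21 did not pass. The median difference was 0.36, and 11.6% of tested named genes were higher. Jak1 did not pass by its brightest probe set (-0.27, adjusted p 0.105), but its other tested probe set passed as lower. With 1 array left out 5 to 13 passed, and without LacZ 5 and p38 1 together 14 passed. Il6 was at least 1.92-fold higher (adjusted p 0.00993), with 41.0, 73.3, 62.5, 212 and 137 on the p38 arrays, against 14.8, 9.62, 1.35, 17.9 and 31.5 on the LacZ arrays. All LacZ arrays, LacZ 5 included, lay under the brightness limit.

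Il1b was higher by 0.99 (adjusted p 0.0179) and the interleukin-1 receptor accessory protein Il1rap by 0.86 (0.0131). Among transcription factors and kinases Atf3 was higher by 2.67 (adjusted p 0.00344), Junb by 0.91 (0.0142), the NF-kB cofactor Bcl3 by 0.62 (0.0362) and Jak2 by 0.74 (0.0401). The other tested Bcl3 probe set did not pass. Il17ra, the interleukin-17 receptor, was higher by 0.63 (0.0342; 0.0510 without LacZ 5), and Cebpa and Nfkbiz make up the 10. Stat3 differed by 0.11 (adjusted p 0.687), Socs3, a feedback inhibitor of interleukin-6 signalling, by 0.36 (0.239), Cebpb by 0.51 (0.183) and Cebpd by 0.90 (0.0578), and none of these passed.

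Within the fluidics statuses, the 18 genes named here from the 3 lists as passed differed by 0.47 to 4.11 (median 1.38) among Completed arrays and by -0.09 to 2.28 (median 0.30) among Started arrays, where LacZ 5 is the lone LacZ array. Among Started arrays Atf3 (2.28) and Hamp (1.68) kept a difference above 1, while Serpina3n (0.10), Chi3l1 (0.08), Emb (0.00), Cybb (-0.02), Bcl3 (0.09) and Jak2 (-0.09) were near 0. Among Completed arrays these same 6 differed by 1.45, 0.77, 1.43, 1.44, 0.94 and 1.35 in that order. The part of the status was not tested.

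**Figure D4:**
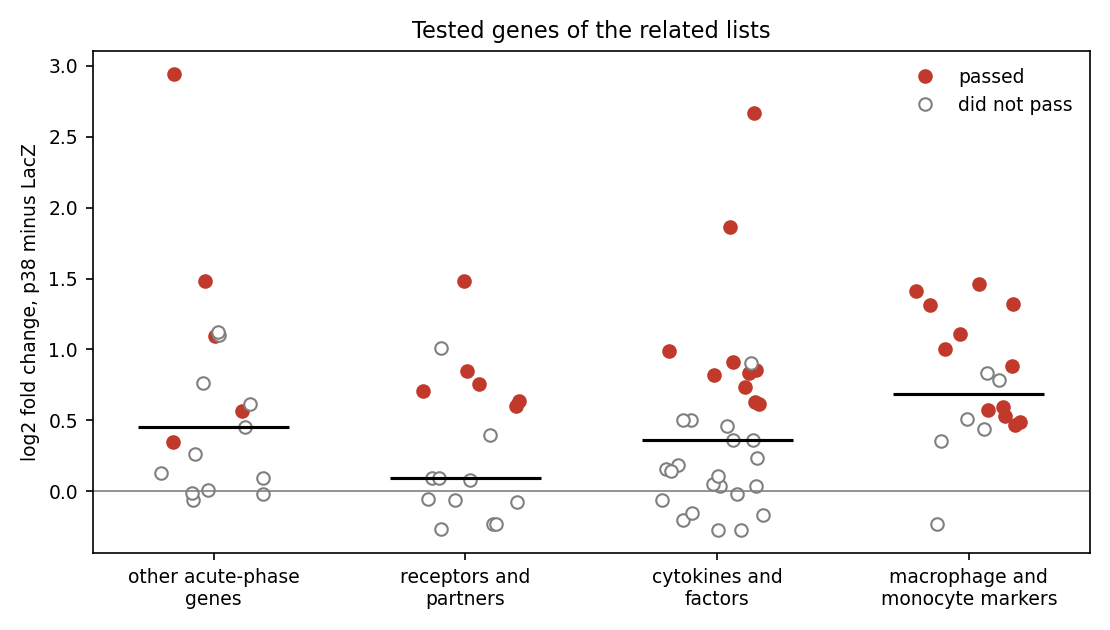
Log2 difference, p38 minus LacZ, of each tested gene (points, brightest probe set) of the other acute-phase genes, the receptors and partners, the controlling cytokines and factors, and the macrophage and monocyte markers, with filled points for genes that passed and bars at the list medians. All filled points lie above 0, and the list medians are 0.45, 0.10, 0.36 and 0.69.

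Several markers of macrophages were also higher in p38 hearts. Of 18 tested macrophage and monocyte markers 12 were higher in p38 hearts and none lower, where 11.6% of tested named genes were higher, with Fcgr2b higher by 1.46, Tyrobp by 1.41 and Lgals3 by 1.32, and of the defining markers Cd68 and Adgre1 passed and Csf1r did not. The summed signal of the list was 14052 to 28318 in p38 hearts and 11122 to 16035 in LacZ hearts. The mean deviation of the tested markers from their 10-array means was -0.24 on p38 1 and 0.16 to 0.82 on the other p38 arrays. It was 0.05 on LacZ 5 and -0.60 to -0.39 on the other LacZ arrays, so LacZ 5 was the highest LacZ array here too. On p38 1, which had the highest Reg3b and Lcn2 signals of the p38 group, these markers lay below LacZ 5. Their part in the acute-phase results was not tested.

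Most markers of liver and exocrine pancreas were too dim to be tested. This held for 17 of 19 hepatocyte markers with a probe set, including Alb, Apoa1 and Hnf4a. Of the tested pair, Ttr, which encodes transthyretin, averaged 9.26 in p38 hearts and 9.28 in LacZ hearts on the log2 scale and did not pass, and Cyp2e1, at 6.39 and 7.18, was lower in p38 hearts. The summed hepatocyte signal, most of it from Ttr, was 795 to 1052 in p38 hearts and 950.3 to 1069 in LacZ hearts. All 14 pancreatic acinar markers with a probe set, Prss1, Cpa1 and Pnlip among them, were too dim, with sums of 156 to 229 in p38 hearts and 163 to 194 in LacZ hearts. Mesothelial and epicardial markers summed to 1684 to 1998 in p38 hearts and 1695 to 2001 in LacZ hearts. Of 8 tested 1, Aldh1a2, was higher, where 11.6% of tested named genes were higher. The mean deviation of the 8 was 0.34 on LacZ 5, -0.23 to -0.002 on the other LacZ arrays and -0.07 to 0.10 on the p38 arrays. That of 3 tested red cell markers was 0.86 on LacZ 5, 0.15 to 0.36 on the other LacZ arrays and -1.07 to 0.14 on the p38 arrays.

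Likeness of 2 profiles was measured as the root mean square difference between them over the 10 arrays, each set to mean 0 and SD 1, so that 0 means the same pattern. Among 10595 other tested named genes the closest to Reg3b were Serpina3n (0.30), Maff (0.30), Hsf2 (0.33), Dnajc1 (0.34) and Plekhf2 (0.34), against a median of 1.34. The closest to Lcn2 were Hsf2 (0.29), Mpv17l2 (0.35), Kcne3 (0.37), Nup88 (0.37) and Cuedc2 (0.38), against a median of 1.33. The scaling leaves out the size of a change. Log2 differences between the groups ran from 0.19 (Nup88) to 1.09 (Serpina3n) in these genes, against 2.70 for Reg3b and 1.52 for Lcn2. In each of them LacZ 5 lay above LacZ 1 to LacZ 4, and the part of that array in the likeness was not tested. Lcn2 ranked 20 in likeness to Reg3b (0.42) and Reg3b ranked 16 in likeness to Lcn2. With each group centred on its own mean, the difference between Reg3b and Lcn2 was 0.59, and the ranks were 32 and 51.

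The other genes were less like Reg3b and Lcn2 than these were like each other. A2m differed from Reg3b by 0.63 (rank 493) and from Lcn2 by 0.89, and Orm1 from Lcn2 by 0.69, from Reg3b by 0.90 and from A2m by 1.26. Among the tested genes of the 9, S100a9 was closest to Cp (0.78), and Hp differed from Lbp by 1.68. Reg3b and Lcn2 were both picked for their rise in these arrays, so the choice itself favours a likeness between them. With each group centred on its own mean, A2m and Cp were the closest pair (0.55, against 0.59 for Reg3b and Lcn2). These values come from the same 10 arrays and are descriptions without a test.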

How the data were processed

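Each probe set has 1 linear intensity on each array as deposited, which the authors made with GCOS 1.2, per the submitters' processing notes on 9 of 10 samples. No scaling target was given in the sources used here. Groups and replicate numbers came from the sample titles, and fluidics status and module from the experiment records, per the file headers.

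Signals were taken as log2(signal + 16) and quantile normalized. After 57 control probe sets were left out, 31042 remained, and removal of the 40% that were dimmest on average left 18625 for the test. The groups were set against each other by limma 3.58.1 (R 4.3.3), using lmFit and eBayes with trend, and two-sided p-values were adjusted by Benjamini-Hochberg across all 18625. The design has no covariate. The number of arrays limits the precision.

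Of the 31042 probe sets, 20826 had 1 gene symbol in the platform annotation, 436 several and 9780 none. Entrez identifiers of 20758 were found in the RefSeq table of GRCr8, used for names and neighbours only. The brightest probe set stood for a gene, and all probe sets of the 9 genes are given. Promoter sequences came from RefSeq, and 5 of the 9 genes matched.

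The 9 genes, the lists of related genes and of cell type markers, and the tests were chosen with earlier results of these data known. Genes named from a list are those that passed, or the 8 with the smallest p where more passed, plus genes that make up small counts, defining markers, and receptors, factors and neighbours named for their role after their values were seen. Map2k3 and Mapk14, Timp1, Tnc and Alox15 were also added in that way. Alternatives changed the pseudocount, scaling, filter, variance model, weights, blocks, probe set rule and arrays. The test was checked on simulated data.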

Additional observations from a re-analysis of the deposited data

Results flagged for a closer look

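Among 88 groups of 5 arrays examined, 5 held an array set apart from the rest by over 0.71 of the group's range. Chance gives this mark in about 1 of 20 independent groups. The groups examined here share arrays and partly genes, so the count cannot be judged against that rate. LacZ 5 was the array in 3 of the 5, which are therefore not separate observations. For Reg3b, p38 3 was the lowest p38 array at 11.53 on the log2 scale, where the others ran from 12.66 to 13.10. For Lcn2, LacZ 5 was the highest LacZ array at 11.13, where the others ran from 8.96 to 9.08, a gap of 0.94 of the range. For Reg3g, LacZ 5 was likewise the highest at 8.27, where the others ran from 6.16 to 6.64. The mean deviation of the other acute-phase genes that rise in the classical response was 0.25 on LacZ 5, where the other LacZ arrays ran from -0.62 to -0.39. The mean deviation of the endothelial markers was 0.060 on p38 3, the highest of the p38 arrays, where the others ran from -0.14 to -0.09. For Reg3b itself LacZ 5 was not marked by this measure, since LacZ 1 to LacZ 4 also differ widely on the log2 scale.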

How the results depend on the processing

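As a description, the difference without 1 array ran from 2.35 to 3.47 for Reg3b and from 1.33 to 1.95 for Lcn2. With fluidics status as a block it was 2.20 for Reg3b and 1.13 for Lcn2. For Lbp the difference turned to 0.01 with signals as deposited, where the median over all tested probe sets was 0.11, against -0.03 as reported. That scaling also gave 1043 changed probe sets, 956 higher and 87 lower, against 2979 (1601 and 1378), and median centring split its calls 1644 to 777. Array weights gave 5195.

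Without 1 array, changed probe sets ran from 1241 to 4468, falling to 1509, 1628, 1281 and 1841 without LacZ 1, 2, 3 and 4 and to 1674, 1241 and 1744 without p38 2, 4 and 5. Of the 6 tested genes other than Reg3b and Lcn2, 1 passed (A2m) at a pseudocount of 64, with median centring and with cyclic loess, and 2 (A2m and Orm1) with array weights; without 1 array 0 to 1 passed. Without LacZ 5 and p38 1 together, an alternative chosen after seeing the data, 1 passed (A2m). Among the other acute-phase genes 3 passed without a filter and 11 with array weights, 3 to 9 without 1 array (3 without LacZ 1, 2 or 3 or p38 2, 4 or 5, 8 without p38 1, 9 without p38 3), and 10 without LacZ 5 and p38 1. Receptors and partners gave 3 to 8 without 1 array, the lowest without LacZ 3. Cytokines and factors gave 5 with signals as deposited, without a filter and with the dimmest 60% left out, 16 with array weights, and 5 to 13 without 1 array (5 without LacZ 3 or p38 2, 4 or 5, and 6 without LacZ 1 or 4). Hamp, Cd14, Ly96, Junb and Atf3 passed in all 25 alternatives, while Cybb and Igfbp3 failed in 13 of them, Il17ra in 11, Bcl3 and Jak2 in 10 and Chi3l1 in 9. The cause of these shifts was not tested.

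The titles give replicate numbers 1 to 5 in both groups, but same-numbered arrays did not deviate together: the correlations of their deviations were 0.084, 0.103, 0.044, -0.135 and 0.276, and 2 of 5 arrays matched best with their own number. With the replicate number as a block 1 of the 6 genes (A2m, adjusted p 0.020) and 9 of the other acute-phase genes passed, with 3080 changed probe sets in all.

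Genes near the brightness limit, A2m, Hp, S100a8 and Il6 among them, rest on signals close to background. S100a9 was also under the limit on LacZ 3.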
